A study of Mus musculus with 6 samples.

Results

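The insulin-like growth factor 1 (IGF1) system was followed in mouse endometrium, the mucosa of the uterus, in a model of adenomyosis, in which endometrial tissue grows into the muscle wall. It was taken as 10 genes chosen by symbol, out of 44788 gene rows in the deposited count table: the ligand Igf1, the receptor Igf1r, the binding proteins Igfbp2 to Igfbp7, and the receptor substrates Irs1 and Irs2. All 10 rows were found, and all 10 had enough reads to be tested among the 16581 genes that passed the filter on low counts. No value of the table entered their choice, but earlier results of these data were known when they were chosen.

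IGF1 is a secreted growth factor that binds the IGF1 receptor, a tyrosine kinase of the cell surface. The activated receptor phosphorylates insulin receptor substrates, docking proteins that pass the signal to PI3 kinase and AKT, while other adapters feed the RAS and ERK kinases. Secreted IGF binding proteins hold the ligand, carry it and limit or prolong its access to the receptor, and proteases such as PAPP-A free it again. In the rodent uterus stromal Igf1 is a known target of estrogen and a mediator of its growth effect on the epithelium.

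All 6 libraries came from ICR mice, an outbred strain, in which neonatal tamoxifen (2.7 µmol/kg by mouth, days 2 to 5 of life) had induced adenomyosis. Of 16 such mice, 8 were assigned, after 75 days, to the GnRH agonist Decapeptyl (spelled Decapetyl in the labels, 1.5 µg per 100 g of body weight a day, into the abdomen, days 3 to 9 of estrus) and 8 to the solvent alone. The mice were mated 4 weeks later, and the endometrium was scraped off on day 4 of pregnancy. The groups held 3 libraries each. Both groups carried the tamoxifen treatment and the pregnancy, and no library of an untreated uterus was analysed here. Whether each library is 1 mouse or a pool is not stated, and p-values therefore measure only the spread among these 6 libraries, which may be technical.

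Library totals ranged from 11720958 to 14104266 counts, and the 10 genes together took 11365 to 29477 reads per library. Ribosomal 18S RNA (Rn18s-rs5) made up 3.31% of no-agonist library 2 and 1.94% of agonist library 1, against 0.254 to 0.369% in the other libraries. Values without this pair of libraries are therefore given for Igf1, for counts of genes that moved and for estimates that changed sign. Estimates of other members moved in size only, and these are not all printed. Endometrial identity was checked on markers: the 10 stromal genes, led by Col3a1, Col1a1 and Dcn, summed to 3572 to 5622 CPM (counts-per-million of the library size after TMM scaling, used for all levels below) without the agonist and 3836 to 4663 CPM with it, and each of the 10 had reads. The 9 epithelial genes, led by Krt8, Krt19 and Krt7, summed to 6446 to 11460 CPM without the agonist and 3974 to 5443 CPM with it. The 8 smooth muscle genes, led by Acta2, Tagln and Myh11, summed to 7643 to 19460 CPM without the agonist and 2968 to 11930 CPM with it, so muscle transcripts were abundant in the scrapings. In bulk tissue such as this, fewer cells of a type and less RNA per cell cannot be told apart.

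The binding protein genes lie partly in pairs. Igfbp2 (chromosome 1, 72824503 to 72852474, plus strand) and Igfbp5 (chromosome 1, 72857932 to 72874884, minus strand) are neighbours tail to tail with 5457 bases between them, in the GENCODE M21 annotation of GRCm38. Igfbp3 (chromosome 11, 7206086 to 7213923, minus strand) faces Igfbp1 in the same way across 3539 bases. Igfbp1 itself, a binding protein that marks decidual cells in the human uterus, had 2 reads in agonist library 2 and 0 in the other libraries and did not enter the test. At 0 reads a level of up to 3 reads remains possible, which is 0.213 to 0.256 CPM in these libraries. The neighbours Igfbp2 and Igfbp5 did not peak together: Igfbp2 stood out in no-agonist library 3, where Igfbp5 was at its lowest.

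Upstream sequence is shown for the pair of members with the largest upward fold changes, Igfbp3 and Irs1, and for the binding protein with the highest level per length, Igfbp7. Each run is the 250 bases before the RefSeq start (GRCm38.p6), 5′ to 3′ on the gene's strand, at chr11:7213924-7214173 (minus), chr1:82291440-82291689 (minus) and chr5:77408046-77408295 (minus). No base of the 3 windows lies in an annotated exon of GENCODE M21. Capitals mark GC boxes (GGGCGG, the site bound by SP1) and estrogen response element half-sites (GGTCA), searched on both strands, so that CCGCCC is a GC box on the other strand.
Igfbp3: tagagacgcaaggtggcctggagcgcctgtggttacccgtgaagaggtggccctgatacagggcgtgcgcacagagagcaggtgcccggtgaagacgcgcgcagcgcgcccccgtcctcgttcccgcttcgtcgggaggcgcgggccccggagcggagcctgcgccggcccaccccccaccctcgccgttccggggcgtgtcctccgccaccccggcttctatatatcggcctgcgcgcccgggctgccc
Irs1: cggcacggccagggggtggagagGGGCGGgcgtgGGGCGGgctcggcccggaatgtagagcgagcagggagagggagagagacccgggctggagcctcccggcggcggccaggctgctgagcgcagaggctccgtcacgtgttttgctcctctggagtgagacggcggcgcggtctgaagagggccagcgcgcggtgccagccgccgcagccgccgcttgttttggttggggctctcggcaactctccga
Igfbp7: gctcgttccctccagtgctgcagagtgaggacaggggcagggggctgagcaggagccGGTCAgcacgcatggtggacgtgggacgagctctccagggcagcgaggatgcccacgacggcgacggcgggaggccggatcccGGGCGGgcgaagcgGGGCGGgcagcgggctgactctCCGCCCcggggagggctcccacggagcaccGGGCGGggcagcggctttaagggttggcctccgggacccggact

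All 3 runs are rich in G and C, with a GC content of 73.2%, 72.4% and 74.0%, against a median of 52.4% over 32851 such windows. GC boxes occurred 2 times in the Irs1 window, 4 times in that of Igfbp7 and not in that of Igfbp3, and 32.7% of all windows hold one. The half-site GGTCA was found in the windows of Igf1, Igf1r, Igfbp2, Igfbp6 and Igfbp7, 5 of the 11 windows of the 10 genes, while 35.2% of all windows hold it. The Igfbp2 match was in that gene's downstream window (chromosome 1, 72825137 to 72825386). That window lies inside the annotated gene and holds 65 annotated exon bases. The full palindromic estrogen response element (both half-sites, 3 bases apart) was in none of the 11 and in 0.0639% of all windows, and the FOXO site GTAAACA was in none of the 11 and in 3.17%. These are matches of letters within a short window, not binding sites. The Igf1 window (chromosome 10, 87860861 to 87861110) lies wholly within annotated exon and is not printed.

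Igf1 was the one member whose groups did not overlap. It measured 143, 92.8 and 144 CPM in the 3 libraries without the agonist and 81.8, 71.7 and 51.5 CPM in the 3 with it. Every agonist library lay below every library without agonist, although agonist library 1 and no-agonist library 2 were close. The means were 68.3 ± 15.5 CPM with the agonist against 127 ± 29.3 CPM without it (SD, n = 3 each, as for all means that follow), a 1.85-fold lower level. The log2 fold change of -0.89 ± 0.26 (SE) had an adjusted p = 0.362 in edgeR's quasi-likelihood test with Benjamini-Hochberg adjustment over the 16581 genes and was not called. DESeq2 gave Igf1 an adjusted p = 0.0989. Without the pair of libraries highest in 18S the log2 fold change was -1.21 (edgeR adjusted p = 0.226). The groups of 14.5% of all tested genes did not overlap, 7.61% with the agonist lower, and 9.26% had an unadjusted p under 0.05. Igf1 (chromosome 10, 87858265 to 87937042) has 8 annotated transcripts, and the table does not split its reads among them.

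**Figure D1:**
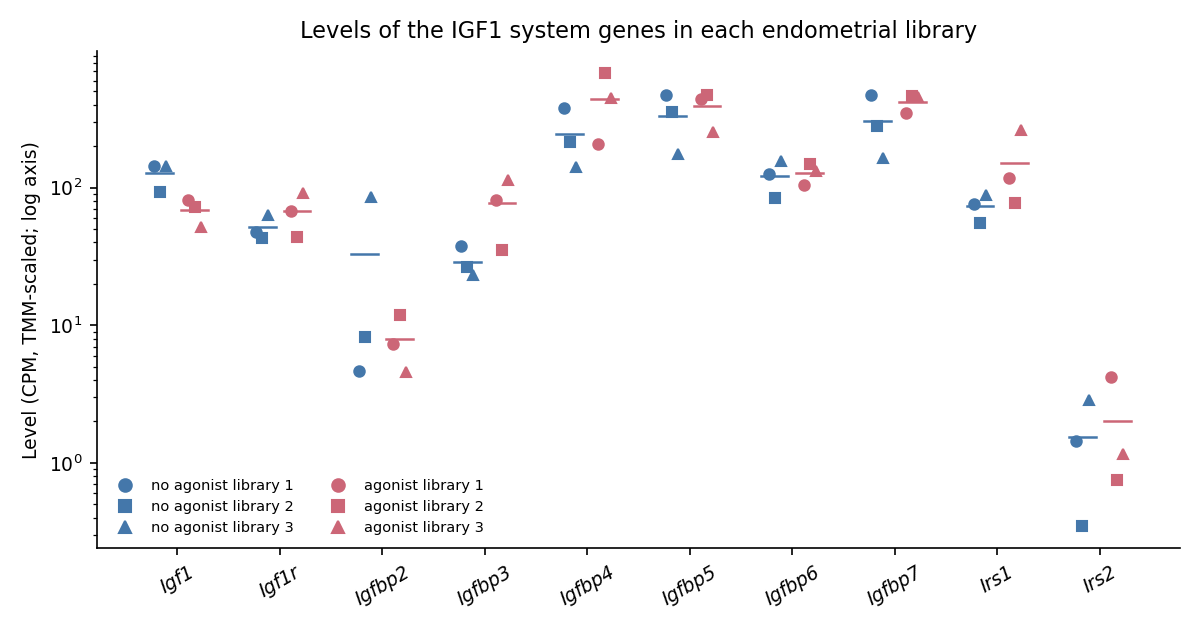
Level in each library (vertical axis, CPM, log scale) of the 10 IGF1 system genes, with no-agonist libraries in blue, agonist libraries in red, marker shapes for libraries 1 to 3 and lines at the group means. Igf1 is the gene whose groups do not overlap, Igfbp2 is high in no-agonist library 3 (85.1 CPM), and Irs2 lies at 0.348 to 4.17 CPM.

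Estrogen-induced uterine genes were measured beside Igf1. The 8 listed genes, led by complement C3, the secreted Clca3 and lactotransferrin (Ltf), summed to 20320 to 39530 CPM without the agonist and to 3739 to 15340 CPM with it. All 8 had a fitted log2 fold change below 0, as did 7922 of the 16581 tested genes. The groups did not overlap for 7 of the 8, Ltf being the exception, beside 7.61% of all tested genes in that direction. The quasi-likelihood test of edgeR called 0 of the 8. An unadjusted p under 0.05 was found for 7, beside 5.09% of all tested genes in that direction. The list was chosen with earlier results of these data known. The order of the 6 libraries by this sum was the order by Igf1: no-agonist libraries 3, 1 and 2, then agonist libraries 1, 2 and 3. With Clca3 left out, no-agonist libraries 1 and 2 changed places. This was noticed after the values were seen. None of the 8 genes taken alone kept the whole order. Of the 16581 tested genes, taken singly and not as sums, 97 (0.585%) did. All 97 were among the 1262 genes whose groups did not overlap with the agonist lower. Igf1 and the sum both separated the groups in that direction, so only the order within each group could still differ. Within the no-agonist group, Igf1 was nearly equal in libraries 3 and 1, at 144 and 143 CPM. The part of estrogen in the level of Igf1 was not tested.

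**Figure D2:**
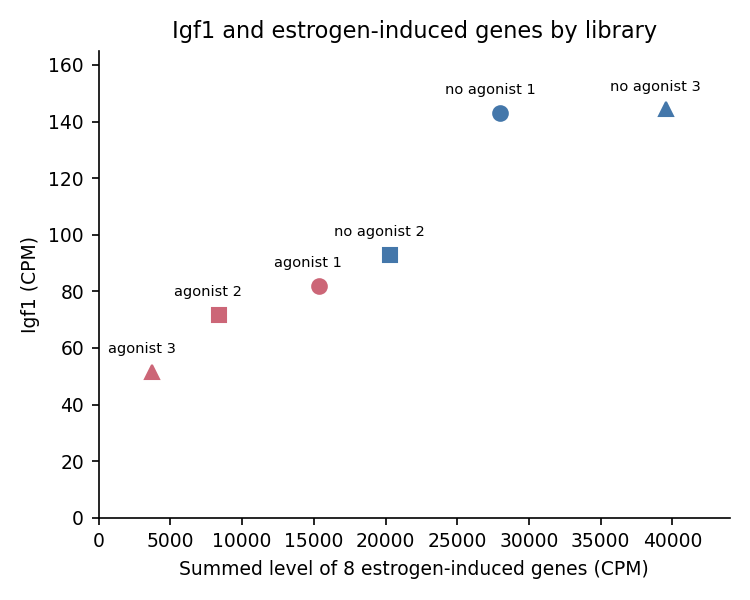
Igf1 (vertical axis, CPM) against the summed level of 8 estrogen-induced genes (horizontal axis, CPM), 1 point per library, with no-agonist libraries in blue and agonist libraries in red. Both measures order the libraries alike, from agonist library 3 (51.5 CPM of Igf1) to no-agonist library 3 (144 CPM).

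Markers of the cell types in the scrapings gave the following values beside Igf1. Fitted log2 fold changes lay below 0 for 9 of 9 epithelial, 8 of 8 smooth muscle and 5 of 5 macrophage genes. They lay below 0 for 4 of 10 stromal genes, and for 7922 of all 16581 tested genes. None of these genes was called. In edgeR's quasi-likelihood test, 4 of the 9 epithelial genes lay lower at an unadjusted p under 0.05, beside 5.09% of all tested genes. The same held for 1 of 5 macrophage, 0 of 8 smooth muscle and 0 of 10 stromal genes. The groups did not overlap for 2 of the 9 epithelial genes, Krt7 and Krt19, both lower, beside 7.61% of all tested genes. Macrophage markers, of which 5 of 6 symbols were in the table, summed to 85.6 to 422 CPM without the agonist and 141 to 189 CPM with it. Within them Cd68, a lysosomal protein of macrophages, measured 81.8, 35.9 and 64.4 CPM without the agonist and 25.6, 20.1 and 13.2 CPM with it, while C1qa, C1qb and Csf1r overlapped between the groups. Decidual markers summed to 571 to 607 CPM without the agonist and 152 to 182 CPM with it, a difference that lay mainly in Alpl (mean 438 and 68.8 CPM). Wnt4 and Bmp2 overlapped between the groups, with log2 fold changes of -0.72 and 0.99, and the decidual prolactins Prl8a2 and Prl3c1 had 0 reads. Progesterone-induced genes summed to 275 to 399 CPM and 470 to 523 CPM, a difference that lay mainly in Alox15 (mean 127 and 269 CPM). Gata2, the other abundant gene of that list, had means of 200.5 and 198 CPM. In edgeR's quasi-likelihood test, 4 of the list's 5 tested genes lay higher at an unadjusted p under 0.05, beside 4.17% of all tested genes. The groups did not overlap for 3 of the 5, all higher, beside 6.94% of all tested genes, and 0 of the 5 were called. Other leukocyte markers summed to 6.96 to 19.9 CPM and 20.7 to 26.6 CPM, and mesothelial markers to 24.5 to 59.1 CPM and 34.4 to 79.6 CPM. Gland markers summed to 83.5 to 114 CPM and 59.9 to 211 CPM. Among them Cxcl15 measured 0.755, 1.04 and 0 CPM without the agonist and 1.36, 82.2 and 69.8 CPM with it. Its groups did not overlap (edgeR adjusted p = 0.3), while Sox9 and Foxa2 overlapped between the groups. Ovary and oviduct markers summed to 3.93 to 6.98 CPM and 7.39 to 176 CPM, the highest in agonist library 1, with Cyp19a1 and Fshr at 0. In that library Ovgp1 alone measured 173 CPM, while Inha had means of 2.86 CPM without the agonist and 2.69 CPM with it. The part of cell make-up in the level of Igf1 was not tested.

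Among the genes whose profile over the 6 libraries was most like that of Igf1 were Specc1, Fam102a, Fhl2 and Qpct. They were among the 5 closest of 12866 tested genes with a mean of at least 5 CPM, by the root-mean-square difference of log2(CPM + 1) values centred on the 6 libraries. That difference ranged from 0.075 for Specc1 to 0.148 for Qpct, where the spread of Igf1 around its own mean was 0.52 on the same scale. Specc1 measured 64.6, 39.2 and 58.3 CPM without the agonist and 36.6, 32.4 and 24.2 CPM with it. Fhl2, a LIM-domain cofactor of transcription, measured 32.8, 25.3 and 40.4 CPM and 22.5, 20.5 and 14.0 CPM.

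Igf1r, the receptor of the ligand (chromosome 7, 67952827 to 68233668), measured 47.2, 43.3 and 63.6 CPM without the agonist and 67.8, 43.6 and 92.0 CPM with it. The groups overlapped, with agonist library 2 next to the lowest of all 6. The log2 fold change was 0.40 ± 0.30 (edgeR adjusted p = 0.746), and without agonist library 3 it was 0.12. The estimates for ligand and receptor had opposite signs, and neither was called.

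Igfbp3, the main carrier of IGFs in blood and also made by tissue stroma and vessels, had the largest upward fold change of the 10. It measured 37.4, 26.5 and 23.1 CPM without the agonist and 81.9, 35.4 and 114 CPM with it. The groups overlapped at a single point, since agonist library 2 lay just below no-agonist library 1. The means were 77.3 ± 39.8 CPM against 29.0 ± 7.46 CPM, a 2.66-fold higher level with a log2 fold change of 1.41 ± 0.42 (edgeR adjusted p = 0.364). Without agonist library 3 the log2 fold change was 1.02 (adjusted p = 0.776). DESeq2 gave an adjusted p = 0.0566 and edgeR's likelihood ratio test 0.0777, both short of a call.

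Endothelial markers, led by Pecam1, Eng and Cdh5, summed to 285 to 417 CPM without the agonist and 381 to 530 CPM with it, overlapping between the groups. Fitted log2 fold changes lay above 0 for 8 of 8, and for 8656 of all 16581 tested genes. In edgeR's quasi-likelihood test 0 of the 8 were called, and 2 lay higher at an unadjusted p under 0.05, beside 4.17% of all tested genes. The groups of single genes did not overlap for 2 of the 8, both higher and Cdh5 among them, beside 6.94% of all tested genes. The endothelial sum was 530, 529 and 381 CPM in agonist libraries 1, 2 and 3, where Igfbp3 measured 81.9, 35.4 and 114 CPM. Single endothelial markers differed from each other in their order over these libraries. The part of vessels in the level of Igfbp3 was not tested.

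Igfbp2, a binding protein of epithelial and embryonic tissues, had the largest fold change of all 10 in size and the least even values. It measured 4.68, 8.18 and 85.1 CPM without the agonist and 7.30, 11.9 and 4.54 CPM with it. A single library, no-agonist library 3, was high, and the other 5 lay between 4.54 and 11.9 CPM. The log2 fold change was -2.04 ± 1.03 with all libraries (edgeR adjusted p = 0.604) and 0.31 ± 0.52 without that library, the opposite sign. The same library had the highest sum of smooth muscle markers, 19460 CPM against 2968 to 11930 CPM in the others, and the lowest level of Igfbp4, Igfbp5 and Igfbp7. Whether these go together was not tested.

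Igfbp4, a binding protein that the protease PAPP-A cleaves to release IGF, measured 382, 213 and 141 CPM without the agonist and 206, 677 and 446 CPM with it. Agonist library 1 lay within the other group, and the log2 fold change was 0.85 ± 0.50 (edgeR adjusted p = 0.664). Pappa, the gene of that protease, measured 2.42, 0.957 and 4.22 CPM without the agonist and 5.21, 4.62 and 4.62 CPM with it. Its groups did not overlap (log2 fold change 0.93 ± 0.54, adjusted p = 0.664), at levels of only a few CPM.

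The other 3 binding proteins overlapped between the groups. Igfbp5, which binds matrix and is made by stromal and muscle cells, measured 469, 354 and 175 CPM without the agonist and 444, 470.2 and 253 CPM with it (log2 fold change 0.23 ± 0.40, edgeR adjusted p = 0.911). Igfbp6, which prefers IGF2 over IGF1, measured 126, 84.1 and 155 CPM and 104, 148 and 131 CPM (0.07 ± 0.27, adjusted p = 0.968). Igfbp7, a vessel-associated relative that binds IGF1 weakly, measured 470.4, 281 and 164 CPM and 347, 466 and 455 CPM (0.47 ± 0.38, adjusted p = 0.759). The means of Igfbp5 and Igfbp6 differed by less than the SD of either group, and those of Igfbp7 by less than the SD of the no-agonist group (155 CPM) but more than that of the agonist group (66.2 CPM). The estimate changed sign for Igfbp5 without no-agonist library 3 and for Igfbp6 without no-agonist library 2 or agonist library 2. Igfbp7 shares 85 exon bases with the oppositely oriented Polr2b, and reads from those bases cannot be given to either gene if strand was not used in counting.

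Levels of different genes were compared per kilobase of merged exon. Igfbp7 was the most abundant member, at 301 CPM per kb over all libraries, followed by Igfbp6 at 112, Igfbp4 at 78.0 and Igfbp5 at 60.1 CPM per kb. Igfbp7 ranked 1 in 5 of 6 libraries, and Igfbp6 ranked 1 in no-agonist library 3. Igfbp4 and Igfbp5 were not distinct from each other, with ranges of 32.0 to 153 and 29.2 to 78.3 CPM per kb. Igfbp3 (7.37 to 36.6), Irs1 (6.04 to 28.7), Igfbp2 (2.46 to 46.1) and Igf1 (5.20 to 14.6 CPM per kb) had lower means over all libraries, with ranges that overlapped. In no-agonist library 3, however, Igfbp2 had rank 3, above Igfbp4 and Igfbp5. Igf1r lay at 2.58 to 5.48 CPM per kb and Irs2 at 0.055 to 0.66 CPM per kb, the lowest in every library.

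The place of the ligand in this order differed between the groups. Igf1 had rank 5, 5 and 6 of the 10 in the libraries without agonist and rank 7, 7 and 8 in those with it. Igfbp3 had rank 5 in all 3 agonist libraries and rank 6, 6 and 8 without the agonist. Per length, Igfbp3 lay below Igf1 in all 3 libraries without agonist, at ratios of 0.827, 0.904 and 0.506, and above it in all 3 with it, at ratios of 3.17, 1.56 and 7.04. From reads with no length term the ratios were 0.261, 0.286 and 0.16 against 1.001, 0.493 and 2.22. Leaving out the lengths of a pair of genes multiplies every library's ratio by the same factor, so it cannot change the overlap. It can change which gene is higher. Igfbp3 had fewer reads than Igf1 in agonist library 2 and about as many in agonist library 1. A ratio within a library does not depend on how libraries are scaled, but it shows unequal levels, not which of the genes differed.

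The same was computed for the 6 binding proteins together. Their summed level was 47.2, 45.7 and 26.8 times that of Igf1 without the agonist and 64.3, 106 and 130 times with it, per kilobase of exon. The mean ratio was 100 ± 33.4 against 39.9 ± 11.4, and the groups did not overlap. From reads with no length term the ratio was 10.4, 10.4 and 5.16 in the no-agonist libraries and 14.5, 25.2 and 27.3 in the agonist libraries, and without Igfbp7 in the sum it was 20.3, 20.9 and 17.4 against 29.6, 52.8 and 57.8. The sum itself overlapped between the groups, at 682, 428 and 390 CPM per kb against 531, 768 and 677 CPM per kb. These ratios were chosen after the levels of Igf1 and Igfbp3 had been seen, and no test was made of them.

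**Figure D3:**
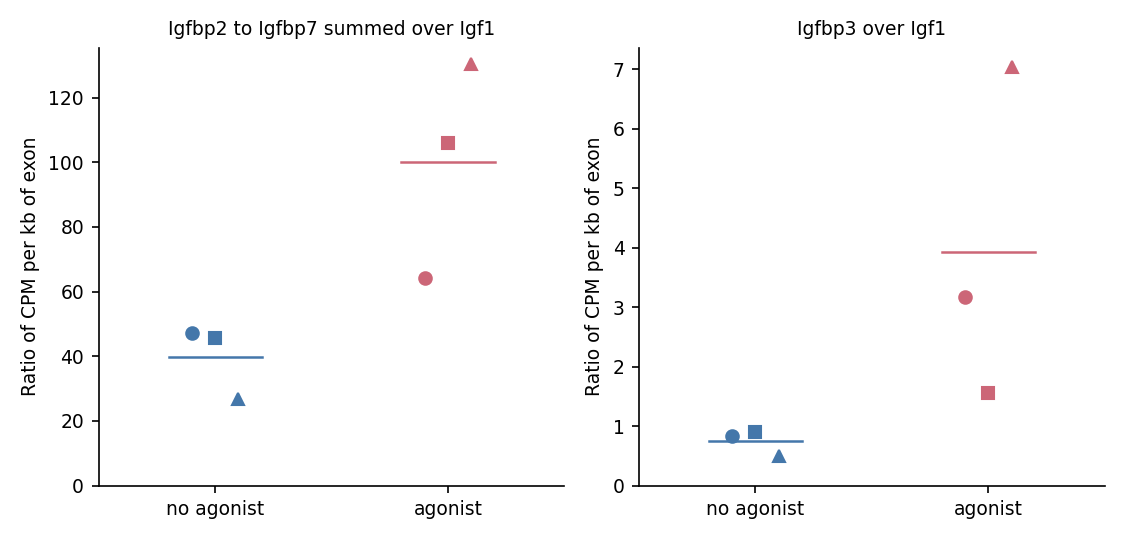
Summed level of Igfbp2 to Igfbp7 over Igf1 (left) and Igfbp3 over Igf1 (right) in each library, as ratios of CPM per kb of exon, with lines at the group means and marker shapes for libraries 1 to 3. The no-agonist libraries (blue) sit at 26.8 to 47.2 on the left and 0.506 to 0.904 on the right, below the agonist libraries (red) at 64.3 to 130 and 1.56 to 7.04.

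The make-up of the binding protein message was alike in 5 of the 6 libraries in its main part. Igfbp7 took 50.2 to 57.1% of the summed level per length in those 5, and Igfbp6 took 16.7 to 17.7%. In no-agonist library 3 Igfbp7 took 34.8%, Igfbp6 35.8% and Igfbp2 11.8%, where Igfbp2 took 0.363 to 1.03% elsewhere. Igfbp3 took 1.75 to 1.98% without the agonist and 4.93, 1.47 and 5.40% with it. The share of Igfbp4 ran from 8.22 to 12.7% without the agonist and from 8.78 to 20.0% with it.

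**Figure D4:**
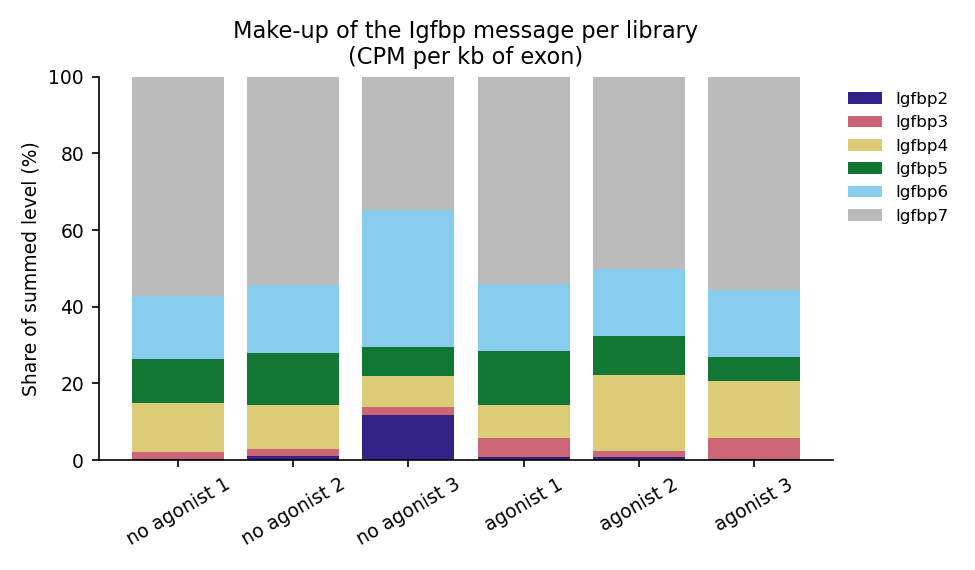
Share of each binding protein in the summed level of Igfbp2 to Igfbp7 per library (vertical axis, percent of CPM per kb of exon), 1 bar per library. Igfbp7 (grey) takes 50.2 to 57.1% in 5 libraries and 34.8% in no-agonist library 3, the library with 11.8% of Igfbp2.

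Irs1, the docking protein through which the IGF1 receptor engages PI3 kinase, measured 75.9, 55.3 and 89.1 CPM without the agonist and 117, 77.1 and 263 CPM with it. Agonist library 3 was the highest of the 6, and agonist library 2 lay within the other group. The log2 fold change was 1.05 ± 0.44 (edgeR adjusted p = 0.53) and 0.41 ± 0.30 without agonist library 3. In that library Igf1 was at its lowest and Igf1r, Igfbp3 and Irs1 at their highest of all 6. The same library had the highest sum of red blood cell markers, 1531 CPM against 113 to 863 CPM in the others, and the lowest of estrogen-induced genes; their part in these levels was not tested. Of the exon bases of Irs1 (chromosome 1, 82233101 to 82291416), 30.9% are shared with the oppositely oriented Gm9747, and if strand was not used in counting, reads from those bases cannot be told apart.

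Irs2, the other substrate of the receptor and a mediator of insulin action in liver and fat, measured 1.43, 0.348 and 2.85 CPM without the agonist and 4.17, 0.747 and 1.15 CPM with it, from 132 reads in all. Its log2 fold change was 0.39 ± 0.87 (edgeR adjusted p = 0.937) and changed sign without no-agonist library 2 or without agonist library 1, so no direction is given. Its lowest values were in no-agonist library 2 and agonist library 2, the libraries in which all 4 fat cell markers (Adipoq, Plin1, Cidec and Lep) had 0 reads. The fat markers summed to 45.1 to 199 CPM in the other 4 libraries. The part of fat tissue in the level of Irs2 was not tested. Per length Irs1 exceeded Irs2 by 19.5 to 157 times, in every library.

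Counted over the 10 genes, 0 were called in edgeR's quasi-likelihood test, where 0 of all tested genes were called (0%). Igfbp3 and Irs1 were higher with the agonist and Igf1 lower at an unadjusted p under 0.05, so 2 and 1 of the 10, beside 4.17% and 5.09% of all tested genes. These shares are 691 genes higher and 844 lower, and with library totals in place of TMM factors they were 1192 and 520. DESeq2 called 0 of the 10 and 2.36% of its genes (0.840% higher, 1.52% lower). The likelihood ratio test of edgeR called 0 of the 10 and 1.62% of all genes (0.627% higher, 0.989% lower). The groups did not overlap for 1 of the 10 in the lower direction and for 0 in the higher direction, where the background was 7.61% and 6.94%. The fitted log2 fold changes were above 0 for 8 genes and below 0 for 2, with a median of 0.39 against 0.018 over all tested genes. The median size was 0.66 against 0.27. On 10 genes these shares are a description.

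Other genes of the pathway were read from a list of 73 genes, of which 72 symbols were in the table and 66 were tested. In edgeR's quasi-likelihood test 0 of the 66 were called, and at an unadjusted p under 0.05, 2 lay higher and 3 lower, against 4.17% and 5.09% of all tested genes. The groups did not overlap for 4 in each direction, where the background was 6.94% higher and 7.61% lower. Their median log2 fold change was -0.019 and their median size 0.14, against 0.27 for all tested genes. DESeq2 called Stc1 higher and Map2k1 lower, and edgeR's likelihood ratio test called Stc1 higher.

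Among ligands and receptors, 0 of 4 tested genes had an unadjusted p under 0.05. Igf2, the second IGF ligand and an imprinted growth gene, measured 9.96, 3.83 and 6.98 CPM without the agonist and 15.6, 5.70 and 6.16 CPM with it (log2 fold change 0.40 ± 0.53). Igf2r, the receptor that clears IGF2, measured 111 to 129 CPM and 98.7 to 155 CPM, and the insulin receptor Insr 36.7 to 46.7 CPM and 36.1 to 59.6 CPM. The growth hormone receptor Ghr, which drives Igf1 in liver, measured 36.0 to 57.6 CPM and 17.8 to 52.8 CPM. All 4 overlapped between the groups.

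Among binding proteins, proteases and their inhibitors, Stc1 had the smallest p of the 66 genes. Stanniocalcin 1 is a secreted glycoprotein, and stanniocalcins inhibit PAPP-A and so the release of IGF from binding proteins. Stc1 measured 2.19, 2.61 and 3.58 CPM without the agonist and 15.8, 9.10 and 27.4 CPM with it. Every agonist library lay above every other, at a 6.23-fold higher level (log2 fold change 2.64 ± 0.47, edgeR adjusted p = 0.237, and 3.27e-05 in DESeq2). Its relative Stc2 measured 30.7, 48.2 and 92.5 CPM and 42.2, 22.6 and 43.9 CPM (-0.66 ± 0.43, edgeR adjusted p = 0.704). The IGFBP-cleaving protease genes Htra1 and Htra3 had log2 fold changes of 0.11 ± 0.49 and -0.14 ± 0.41. Stc1 was the only one of the 7 tested genes of this group with an unadjusted p under 0.05.

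Among the 14 adapters and brakes, Grb10 lay higher and Shc1 lower at an unadjusted p under 0.05. Shc1, the adapter that links the receptor to RAS, measured 196, 194 and 187 CPM without the agonist and 153, 139 and 123 CPM with it, with groups that did not overlap (log2 fold change -0.47 ± 0.18, edgeR adjusted p = 0.5). Grb10, an imprinted adapter that restrains the insulin and IGF1 receptors, measured 99.7, 161 and 86.6 CPM and 148, 214 and 198 CPM (0.69 ± 0.29, adjusted p = 0.527). Socs2, a feedback inhibitor of growth hormone and IGF1 signalling, measured 38.9, 55.2 and 85.3 CPM and 46.3, 25.0 and 11.2 CPM (-1.12 ± 0.51, adjusted p = 0.558).

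In the arm of PI3 kinase, AKT, mTOR and FOXO, 1 of 31 genes had an unadjusted p under 0.05. It was Inpp5d, a phosphatase of PI3 kinase products in blood cells, at 67.2, 62.6 and 47.7 CPM without the agonist and 37.2, 36.9 and 31.7 CPM with it (log2 fold change -0.75 ± 0.20, edgeR adjusted p = 0.329). The catalytic subunit gene Pik3cb measured 32.4, 34.9 and 44.5 CPM and 26.0, 26.7 and 30.2 CPM (-0.43 ± 0.20, adjusted p = 0.569). The group's median size of 0.10 was the smallest of the sub-groups with more than 1 tested gene. Foxo1, the transcription factor that AKT holds out of the nucleus, measured 104 to 138 CPM and 89.1 to 110 CPM. Foxo6 lay at 0.435 to 1.52 CPM. Gsk3b, a kinase that AKT inhibits, measured 49.4 to 60.3 CPM and 61.4 to 72.3 CPM, so that its groups did not overlap (0.27 ± 0.18).

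In the arm of RAS and ERK, 9 of 10 listed genes were in the table, with Hras not matched. The kinase gene Map2k1, which encodes the activator MEK1 of ERK, measured 110.5, 122 and 169 CPM without the agonist and 74.9, 78.4 and 58.6 CPM with it. The groups did not overlap (log2 fold change -0.92 ± 0.23, edgeR adjusted p = 0.317, and 0.0382 in DESeq2). Braf, a kinase upstream of it, measured 28.5 to 38.6 CPM and 37.1 to 64.6 CPM (0.56 ± 0.26), and Mapk3, which encodes ERK1, 225 to 273 CPM and 235 to 392 CPM (0.35 ± 0.24). The mRNA-binding Igf2bp2 had a log2 fold change of 0.0077 ± 0.21, and Igf2bp1 and Igf2bp3 had too few reads to be tested.

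**Figure D5:**
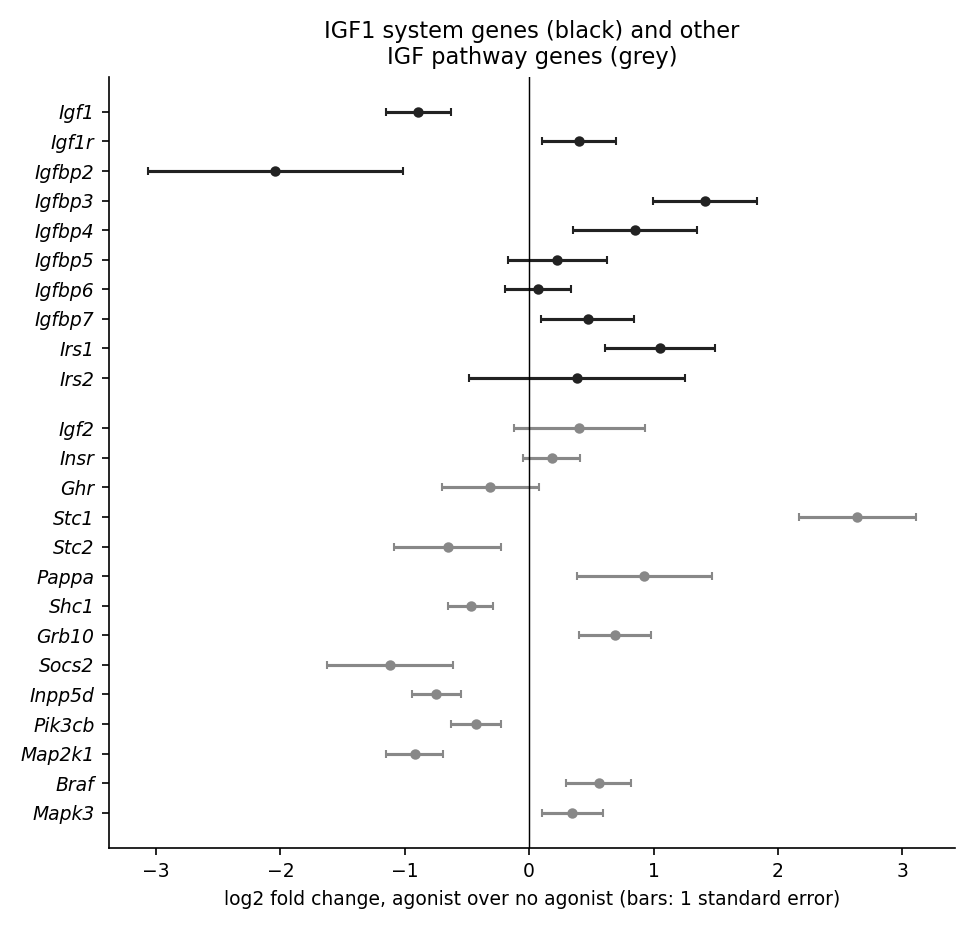
Log2 fold change, agonist over no agonist (horizontal axis; bars are 1 standard error), of the 10 IGF1 system genes (black) and 14 other genes of the pathway (grey). Igfbp3 (1.41), Irs1 (1.05) and Stc1 (2.64) lie to the right of 0 and Igf1 (-0.89) and Map2k1 (-0.92) to the left, and none was called in edgeR's quasi-likelihood test.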

How the data were processed

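The values are the authors' deposited read counts per gene symbol, 1 column per library. The submitters' processing notes name HTSeq 0.6.1 and the build mm10 (GRCm38). Per the labels' protocols, total RNA was made into libraries with an Ion Torrent kit and read single-end on an Ion Proton. Aligner, annotation and strand setting: not given in the sources used here. No pair of libraries held identical values.

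Genes were filtered with filterByExpr, scaled by TMM and compared with edgeR's quasi-likelihood test (edgeR 4.0.16, limma 3.58.1, DESeq2 1.42.0, R 4.3.3), without covariates. Genes were called at an adjusted p (Benjamini-Hochberg, 16581 genes) under 0.05. The test was tried on simulated data. CPM are counts-per-million of TMM-scaled library sizes, and SE is the log2 fold change over the root of its F value. Floors of 3 counts cover counting error only. Exon lengths and coordinates are from GENCODE M21, which matched 31006 of 44788 symbols and all 10 members. Upstream sequences are from RefSeq (GRCm38.p6) and matched all 10.

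Members and lists were chosen with earlier results of these data known. Named were all 10 members, Igf2, Igf2r, Insr and Igfbp1, up to 3 genes of each pathway sub-group with the smallest p, the 5 profiles nearest to Igf1, which had the smallest p of the members, and up to 3 genes of each marker list with the highest mean. Csf1r, Lep, Prl8a2, Prl3c1, Cyp19a1, Foxo1, Gsk3b, Htra1 and Htra3 were named after their values were seen. An item that the rule names is not reported here. Alternatives were other scaling (RLE, upper quartile, library totals alone), other filters, DESeq2, edgeR's likelihood ratio test, limma-voom, leaving out each library, and leaving out the pair highest in 18S or its gene with the mitochondrial genes.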

Additional observations from a re-analysis of the deposited data

How the results depend on the processing

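No paired analysis was possible because the labels give the groups no shared replicate numbers. Over all genes, edgeR's quasi-likelihood test called 0 higher and 0 lower. It called 8 higher and 28 lower with no filter on low counts and 7 lower without the 2 libraries highest in 18S. DESeq2 called 139 higher and 251 lower, and edgeR's likelihood ratio test 104 and 164. Leaving out each library in turn gave 0 called higher and 0 to 1 lower. At an unadjusted p under 0.05, 691 genes lay higher and 844 lower. These counts were 1192 and 520 with library totals alone, which moved the median over all genes from 0.018 to 0.18 on the log2 scale, and 1054 genes lay higher with no filter. With each library left out they ran from 528 to 888 higher and from 535 to 1093 lower.

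Of the 10 IGF1 system genes, 0 were called under any of the 16 alternatives. At an unadjusted p under 0.05, 2 lay higher, against 1 in limma-voom and 0 without the 2 libraries highest in 18S, and 1 to 3 with each library left out. In the other direction 1 lay lower, against 2 with no filter, 2 in the likelihood ratio test and 1 to 2 with each library left out. Groups separated upward for 0 genes, for 1 with library totals alone, for 1 without the 2 libraries highest in 18S and for 0 to 3 with each library left out. Downward the number was 1, and 2 without the 2 libraries highest in 18S. Of the other pathway genes, DESeq2 called 1 higher and 1 lower and the likelihood ratio test 1 higher. At an unadjusted p under 0.05, 4 of them lay higher with library totals alone, and 1 to 3 higher and 2 to 4 lower with each library left out.

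Igf1 (log2 fold change -1.21 to -0.72, adjusted p 0.0989 to 0.769), Igfbp3 (1.02 to 1.76, adjusted p 0.0566 to 0.776), Irs1 (0.41 to 1.37, adjusted p 0.32 to 0.974), Igf1r, Igfbp4, Igfbp7 and Insr kept their sign in all 16. With each library left out, estimates ran from -2.56 to 0.31 for Igfbp2, -0.074 to 0.56 for Igfbp5, -0.13 to 0.29 for Igfbp6, -0.68 to 1.16 for Irs2, -0.22 to 0.76 for Igf2 and -0.27 to 0.079 for Igf2r. The reversed ones were 0.31 for Igfbp2 and -0.074 for Igfbp5 without no-agonist library 3. Igfbp6 gave -0.13 without no-agonist library 2, -0.048 without agonist library 2 and -0.0026 without the 2 libraries highest in 18S. Irs2 gave -0.08 without no-agonist library 2, -0.68 without agonist library 1 and -1.15 without the 2 libraries highest in 18S. Igf2 gave -0.22 without agonist library 1 and -0.51 without that pair. Igf2r gave 0.014 with upper-quartile factors, 0.13 with library totals alone, and 0.02, 0.079 and 0.07 without no-agonist library 3, agonist library 2 and agonist library 3. The cause of these reversals was not tested beyond the library left out. The ratio of summed binding proteins to Igf1 was 2.51-fold higher with the agonist, 2.58-fold from reads with no length term and 2.39-fold without Igfbp7, settings chosen after seeing the data. Irs2 rests on 132 reads in all, from 4 to 52 per library.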
